A study of Ovis aries with 42 samples.

Results

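Transcripts of 10 glycosyltransferases that build and cap mucin-type sugar chains were measured by RNA sequencing in liver and gallbladder of sheep. The list was chosen by gene name, with earlier results of these data known. It comprised the initiating enzymes GALNT3, GALNT4, GALNT5, GALNT7 and GALNT12, the core and branching enzymes B3GNT6, GCNT1 and GCNT3, and the extending and capping enzymes B3GNT3 and ST6GAL1. All 10 were found by symbol among the 22981 genes of the liver table, and 9 were found by symbol among the 29285 genes of the gallbladder table. GALNT4 is in the gallbladder table under the locus number LOC101111006, which a sheep gene table pairs with that symbol, and it is given beside the other 9 and not counted with them. The files give no positions or transcript lengths, so levels of different genes are not compared with each other.

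Animals were wild type (WT) or had a disrupted CFTR gene (CF), which encodes an anion channel of epithelia and causes cystic fibrosis when mutated. The kind of mutation is not in the labels. Liver of both genotypes was taken on days 50, 65, 80, 100 and 120 of gestation (written d50, d65 and so on) and from newborns, which the labels call term in WT and birth in CF. Gallbladder came from WT at d100, d120 and birth and from CF at d80, d100 and d120, so that both genotypes can be set side by side at d100 and d120. There were 2 libraries per group, giving 24 in liver and 12 in gallbladder, and 6 chromatin accessibility samples were not analysed here. One WT term animal is labelled female and the other male.

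Mucins are secreted or membrane proteins whose serine and threonine residues carry dense sugar chains. A family of GALNT enzymes in the Golgi adds the first sugar, N-acetylgalactosamine, to the protein. Core enzymes then extend or branch that sugar, and further transferases lengthen the branches and end them with sialic acid, fucose or sulfate. The biliary epithelium, including that of the gallbladder, makes mucins, and hepatocytes carry sialylated glycans on many of the plasma proteins they secrete.

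Library totals ran from 29705597 to 56808639 estimated counts in liver and from 32374693 to 54443213 in gallbladder. Levels are counts scaled by library size with TMM factors (CPM), and differences are log2 fold changes with their standard error (SE) from edgeR's quasi-likelihood test, adjusted over all genes tested in the tissue with a threshold of 0.05. Several pairs of libraries carry donor numbers with one stem, among them both WT d100 gallbladders, and the 2 CF d100 gallbladder columns carry one library name with the letters a and b. One donor number stands on both a WT d65 and a CF d100 liver, each replicate 2. Whether the paired libraries came from separate animals is not stated, so the p-values measure the spread between these samples, which may in part be technical. The labelled gallbladder libraries held very different amounts of liver transcripts. The sum of 14 hepatocyte markers was 252761 and 250314 CPM at WT d100, 164934 and 98866 at WT d120, 65794 and 24381 at WT birth, between 1933 and 7088 in 5 CF libraries, and 71601 in CF d120 replicate 2. The 12 duct epithelium markers were all above 0 in each gallbladder library, with sums from 2408 to 12236 CPM. Between genotypes at d100 and d120, 6 of 14 hepatocyte markers were called lower in CF, as were 5 of 7 erythroid and 3 of 7 smooth muscle markers (median log2 -3.54, -2.88 and -1.64). Of the 12 duct markers 2 were higher and 3 lower (median log2 -0.53), and of 8 endothelial markers 3 were higher and 1 lower. These facts apply to each gallbladder result below.

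**Figure D1:**
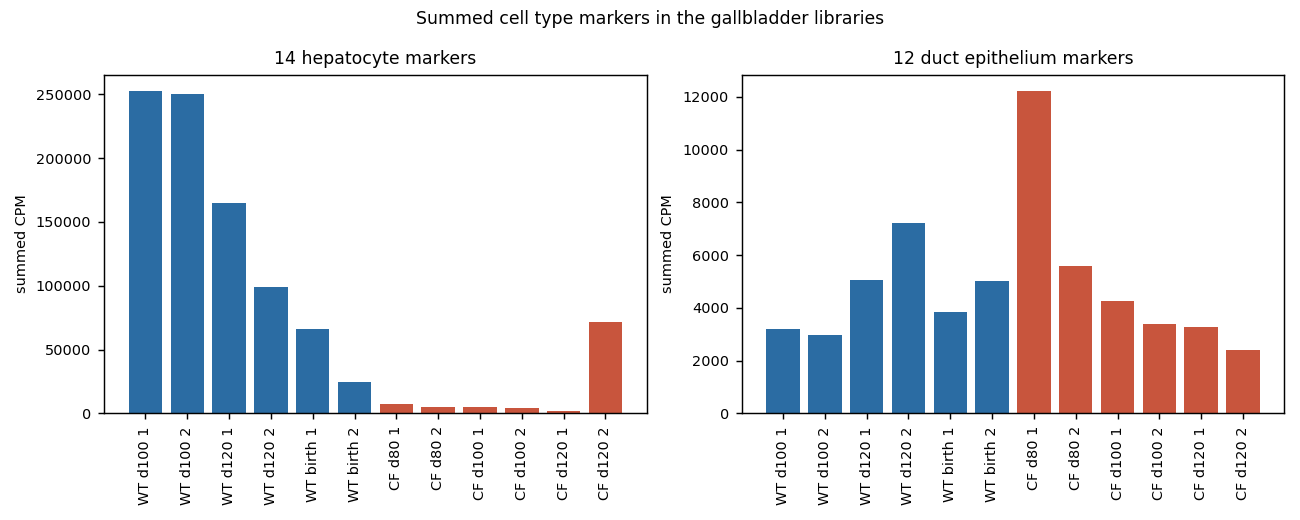
Bars give the summed CPM of 14 hepatocyte markers (left) and 12 duct epithelium markers (right) in each gallbladder library, blue for WT and red for CF. The 4 WT fetal libraries hold 98866 to 252761 CPM of hepatocyte markers, above all CF libraries.

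In fetal gallbladder an initiating, a core, an extending and a capping enzyme were called between genotypes. Only the call of the initiating one, GALNT7, was kept with each library left out in turn. GALNT7, which prefers proteins that already carry a first N-acetylgalactosamine, was higher in all 4 CF libraries than in all 4 WT libraries at d100 and d120. The capping enzyme ST6GAL1 and the core enzyme B3GNT6 were also called higher in CF over both stages, and the extending enzyme B3GNT3 was called lower. Thus 4 of 9 enzymes passed the threshold, 3 higher and 1 lower, where 43.7% of all 18717 genes tested passed it. A share of 4 in 9 is near that background. The median log2 difference of the 9 was 1.43, beside 0.16 over all genes tested. Of the 9, 3 had all CF libraries above all WT libraries and 1 had all below, where 27.5% and 21.5% of all genes did. Those above were GALNT7, B3GNT6 and GALNT3, which was not called, and the one below was B3GNT3. ST6GAL1 overlapped between genotypes.

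In WT fetal gallbladder GALNT7 stood at 2.69 and 3.56 CPM at d100 and at 1.55 and 1.63 CPM at d120. In CF it stood at 37.5 and 60.7 CPM at d100 and at 55.8 and 23.1 CPM at d120. The genotypes did not overlap at either stage. Over both stages the mean was 44.3 ± 17.3 CPM in CF and 2.36 ± 0.958 CPM in WT (SD, n = 4 each), a fitted 19.7-fold difference (log2 4.30 ± 0.78 SE, edgeR adjusted p = 0.00625). GALNT7 kept its call with each of the 8 libraries left out in turn, with libraries of one donor stem summed (adjusted p = 0.0358) and with the CF d100 pair summed (0.0257). CF d80, a stage with no WT library, held 3.13 CPM in replicate 1 and 56.2 CPM in replicate 2, so that 1 CF library lay at the WT fetal level.

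GALNT3, an initiating enzyme known for glycosylating the hormone FGF23, had the same separation without passing the threshold. It stood at 14.3 and 15.4 CPM at WT d100, at 0.819 and 12.5 CPM at WT d120, at 47.2 and 52.6 CPM at CF d100 and at 49.5 and 19.3 CPM at CF d120. Each CF library lay above each WT library, and the difference was log2 2.05 ± 0.80 SE (adjusted p = 0.0626). The DESeq2 Wald test called GALNT3 over both stages (adjusted p = 0.00972) and at d120 (0.0486). With all libraries kept, no other alternative called it over both stages. Over all alternatives that difference ran from log2 1.56 to 3.57, the highest being without WT d120 replicate 2. GALNT5 ran from 5.64 to 10.004 CPM in the 4 WT libraries, while CF held 22.3 and 32.7 CPM at d100 and 23.7 and 5.33 CPM at d120. CF d120 replicate 2 was the lowest of the 8. With all 8 the edgeR adjusted p was 0.0620, and the DESeq2 Wald test called GALNT5 (0.0189). With all libraries kept, no other alternative called GALNT5 over both stages. Over all alternatives that difference ran from log2 0.70 to 1.81, the highest being without CF d120 replicate 2. The locus paired with GALNT4 ran from 7.96 to 17.3 CPM in WT and from 7.63 to 47.6 CPM in CF, with overlap (log2 1.504 ± 0.60 SE, adjusted p = 0.0674).

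GALNT12, whose human gene has been linked to colorectal cancer risk, did not separate the genotypes at d100 and d120. It ran from 15.3 to 37.8 CPM in WT and from 16.1 to 29.5 CPM in CF, with a log2 difference of 0.18 ± 0.40 SE that turned to -0.21 when libraries were scaled on genes low in liver. The core 2 branching enzyme GCNT1 ran from 55.3 to 157.1 CPM in WT and from 38.0 to 109.0 CPM in CF (log2 -0.11 ± 0.55 SE, 0.21 without CF d120 replicate 2 and 0.0079 without WT d120 replicate 2). GCNT3, the branching enzyme of mucin-producing epithelia, ran from 18.4 to 55.5 CPM in WT and from 17.1 to 34.5 CPM in CF (log2 -0.39 ± 0.43 SE, 0.115 without WT d120 replicate 2). None of these 3 was called and each overlapped between genotypes.

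B3GNT6, which makes the core 3 structure of gut mucins, was near the limit of detection. It was at 0.239 and 0.0584 CPM at WT d100 and at 0 in both WT d120 libraries, and it lay between 0.366 and 0.470 CPM in the 4 CF libraries. The genotypes did not overlap, and the adjusted p was 0.0233. That call ended without any 1 of 6 libraries (WT d100 replicate 1 or 2, WT d120 replicate 2, CF d100 replicate 1 or 2, CF d120 replicate 1), with adjusted p from 0.0505 to 0.0701. It also ended with libraries of one donor stem summed (0.0630) or the CF d100 pair summed (0.0590).

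B3GNT3, which lengthens the core 1 chain by N-acetylglucosamine, was the enzyme that was lower in CF. It stood at 68.4 and 66.0 CPM at WT d100 and 81.9 and 176.3 CPM at WT d120, against 49.5 and 39.6 CPM at CF d100 and 29.99 and 12.2 CPM at CF d120. The lowest WT library lay above the highest CF library. Means were 32.8 ± 15.9 CPM in CF and 98.2 ± 52.6 CPM in WT (SD, n = 4 each), a fitted 3.04-fold lower level (log2 -1.60 ± 0.48 SE, adjusted p = 0.0272). The call ended without any 1 of 6 libraries (WT d100 replicate 1 or 2, WT d120 replicate 2, CF d100 replicate 1 or 2, CF d120 replicate 2), with adjusted p from 0.0663 to 0.0966. It also ended with libraries of one donor stem summed (0.0684) or the CF d100 pair summed (0.0808).

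ST6GAL1, which adds sialic acid to terminal galactose, mainly on N-linked chains, was uneven among libraries. It stood at 2.48 and 4.88 CPM at WT d100 and at 0 in both WT d120 libraries. In CF it was 2.49 and 4.95 CPM at d100 and 2.40 and 35.4 CPM at d120. The genotypes had the same range at d100, and the overall difference rests on d120, where the WT libraries were at 0. The size fitted to ST6GAL1 and B3GNT6 depends on the prior count, since the WT d120 libraries were at 0. Over both stages the adjusted p was 0.0128, which became 0.0558 without WT d100 replicate 1 and 0.0507 with libraries of one donor stem summed.

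**Figure D2:**
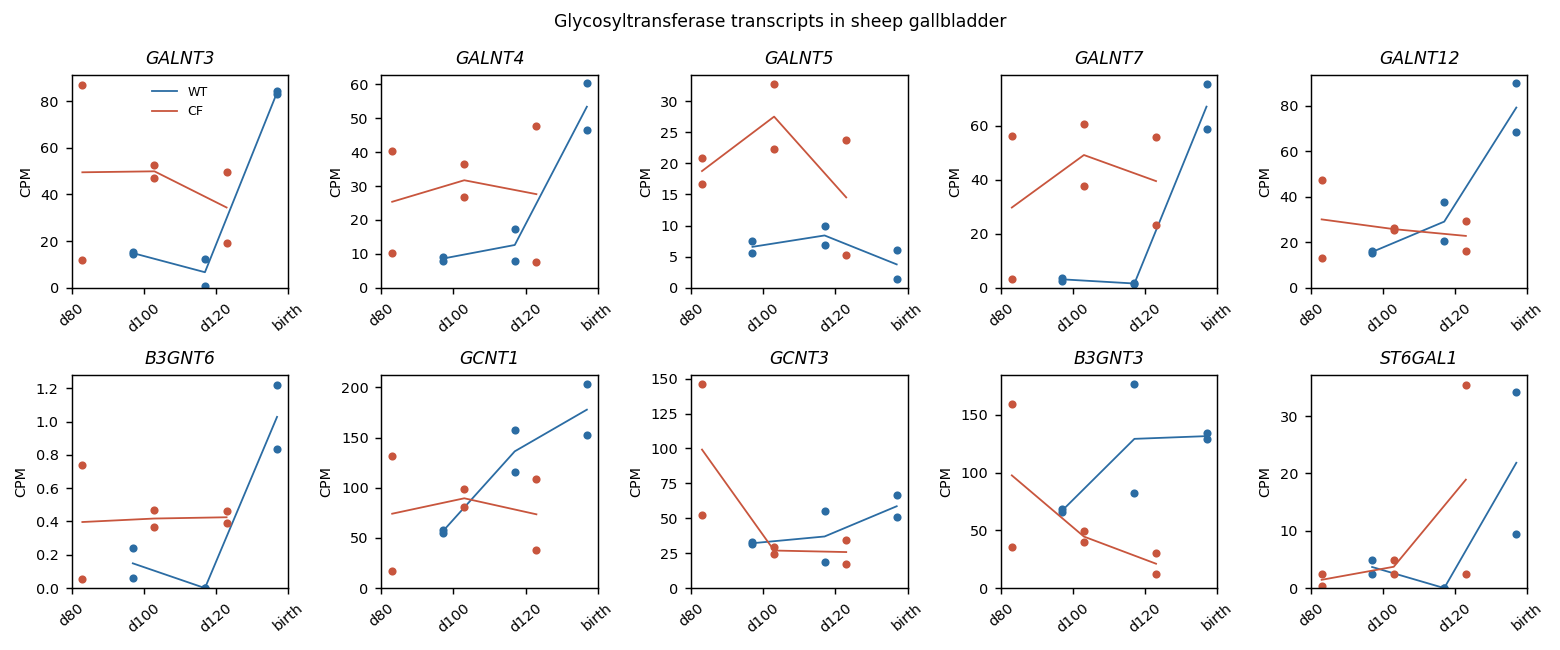
Points are gallbladder libraries and lines join group means, in CPM by stage, blue for WT and red for CF, with 1 panel per enzyme. GALNT7 is at 1.55 to 3.56 CPM in WT fetal libraries and at 23.1 to 60.7 CPM in CF libraries of d100 and d120.

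Taken by stage, no enzyme passed at d100, where 6.53% of all genes did. With edgeR 2 enzymes had an unadjusted p under 0.05 at d100, and the DESeq2 Wald test called 2, GALNT7 (adjusted p = 0.000537) and GALNT5 (adjusted p = 0.0292). Over all 18717 genes, 6167 had an unadjusted p under 0.05 by edgeR at d100, and DESeq2 called 2806 higher and 2430 lower. At d120 4 of 9 were called where 22.7% of all genes were. GALNT7 was 24.8-fold higher (log2 4.63 ± 1.12 SE, adjusted p = 0.0280) and B3GNT3 6.13-fold lower (log2 -2.61 ± 0.71 SE, adjusted p = 0.0347). Against a floor of 3 counts over the WT group, ST6GAL1 was at least 426-fold higher (adjusted p = 0.0210) and B3GNT6 at least 9.57-fold higher (adjusted p = 0.0410). The ST6GAL1 bound rests on CF d120 replicate 2, the CF library with 71601 CPM of hepatocyte markers: with replicate 1 alone it was at least 54.1-fold. Summing the libraries of one donor stem, or the CF d100 pair, left ST6GAL1 as the 1 call at d120. Leaving out any 1 of the 4 d120 libraries ended the calls of GALNT7 (adjusted p 0.0607 to 0.122), B3GNT3 (0.0743 to 0.130) and B3GNT6 (0.0964 to 0.115), and leaving out WT d120 replicate 1 or CF d120 replicate 2 ended that of ST6GAL1 (0.0556 to 0.0813). The genotype difference itself was not called as differing between d100 and d120 for any of the 9 by edgeR, with 2 at an unadjusted p under 0.05 and 1 (ST6GAL1) called by DESeq2. In that comparison edgeR called 0.0% of all genes, with 2470 of 18717 at an unadjusted p under 0.05. The DESeq2 Wald test called 769 genes higher and 256 lower there.

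In bulk tissue fewer cells of a type and less RNA per cell cannot be told apart. The genotypes also differed in the number of tested genes listed at 0, which was 601 to 3658 of 18717 in the 4 WT fetal libraries and CF d80 replicate 1, and 224 to 416 in the other 7. Across that line, drawn after the data were seen, GALNT7 was 1.55 to 3.56 CPM in the first 5 libraries and 23.1 to 75.2 CPM in the other 7, which were 5 CF libraries and both WT birth libraries. B3GNT6 was 0 to 0.239 CPM in the first and 0.366 to 1.22 CPM in the second, and GALNT3 was 0.819 to 15.4 CPM and 19.3 to 87.1 CPM. Neither B3GNT3 (35.9 to 176.3 and 12.2 to 159.1 CPM) nor GCNT1 (16.7 to 157.1 and 38.0 to 203.1 CPM) divided along it. At d100 and d120 this line and the genotype cannot be told apart, and the part of hepatocyte RNA or of genes at 0 in the differences was not tested. Under scaling on the 4056 genes low in liver, which moved the median of all genes by -0.34 on the log2 scale, GALNT7 (log2 3.94), ST6GAL1 (5.96), B3GNT6 (3.95) and B3GNT3 (-2.003) kept their calls.

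**Figure D3:**
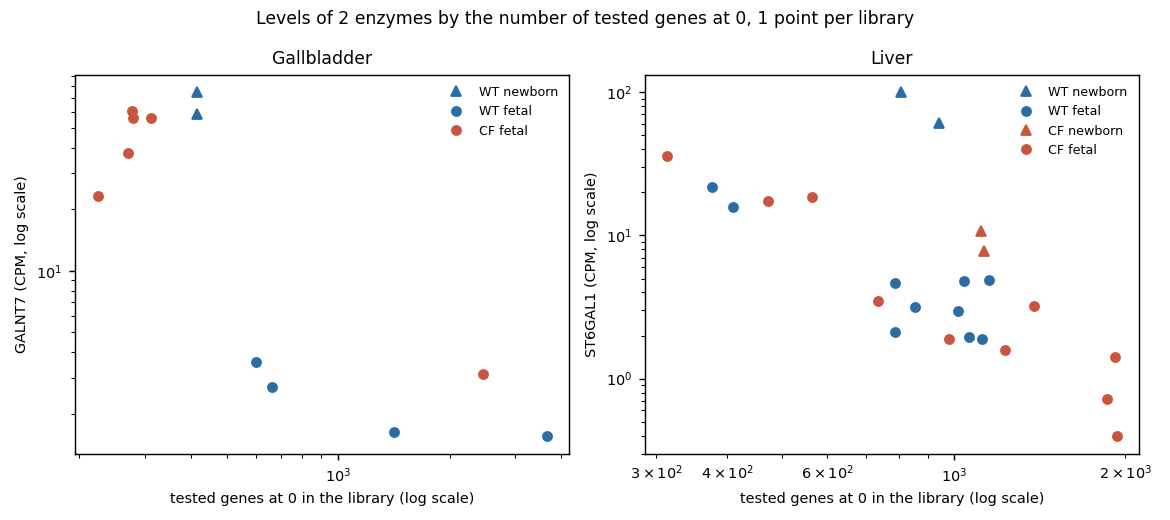
Each point is a library, with the number of tested genes at 0 on a log scale against GALNT7 in gallbladder (left) and ST6GAL1 in liver (right), in CPM on a log scale. In gallbladder the 5 libraries with 601 to 3658 genes at 0 hold 1.55 to 3.56 CPM of GALNT7, and the other 7 hold 23.1 to 75.2 CPM.

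Toward birth, the WT gallbladder rose in 5 of the 9 enzymes and none of the 9 fell, with d100 and d120 as the fetal level. The 5 were GALNT3, GALNT7, GALNT12, B3GNT6 and ST6GAL1, against 27.1% of all genes called in either direction and 16.0% called higher. GALNT7 was 75.2 and 58.8 CPM at birth, a fitted 30.04-fold rise (log2 4.91 ± 0.85 SE, adjusted p = 0.0118). GALNT3 was 82.9 and 84.4 CPM at birth, or 83.7 ± 1.07 CPM (n = 2) against 10.8 ± 6.74 CPM (n = 4), an 8.36-fold rise (log2 3.06 ± 0.91 SE, adjusted p = 0.0391). Both newborn libraries lay above all 4 fetal WT libraries for these 2 genes.

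GALNT12 was 68.6 and 89.9 CPM at WT birth against 22.4 ± 10.5 CPM before (n = 4), a 3.70-fold rise (log2 1.89 ± 0.47 SE, adjusted p = 0.0256). ST6GAL1 was 34.2 and 9.47 CPM at birth (adjusted p = 0.0168) and B3GNT6 was 1.22 and 0.836 CPM (adjusted p = 0.0230), with both libraries above every fetal WT library. The locus paired with GALNT4 was 46.5 and 60.3 CPM against 10.6 ± 4.49 CPM before (log2 2.36 ± 0.69 SE, adjusted p = 0.0375). GALNT5 at 1.41 and 6.11 CPM, GCNT1 at 152.4 and 203.1 CPM, GCNT3 at 50.8 and 66.4 CPM and B3GNT3 at 128.8 and 134.1 CPM were not called.

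Each of the 5 calls ended without WT d100 replicate 1 or 2, or without either WT birth library, with adjusted p from 0.0594 to 0.152 over these and WT d120 replicate 1, which ended those of GALNT12 and GALNT3. With the WT d100 pair summed as 1 unit none of the 9 was called. Far fewer of all genes passed in that fit, and without a WT d100 or WT birth library, than in the fit reported above. The fall in hepatocyte markers from WT fetal to WT birth libraries stands beside these rises. Erythroid markers were also lower at birth, at 1233 to 4267 CPM in WT fetal and 1.5 to 3.4 CPM in WT birth libraries. The number of tested genes at 0 was 601 to 3658 in the 4 WT fetal libraries and 415 and 416 in the WT birth libraries. In this comparison the line of genes at 0 and the stage cannot be told apart, and the part of each was not tested.

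Among the CF gallbladders, the change from d80 to the mean of d100 and d120 gave no call by edgeR, where 0.00534% of all genes passed, with 2 enzymes at an unadjusted p under 0.05 (GCNT3 and B3GNT3) and 1 called by DESeq2 (GCNT3). In that comparison 3137 of 18717 genes had an unadjusted p under 0.05 by edgeR, and DESeq2 called 311 higher and 525 lower. GCNT3 was 52.1 and 146.3 CPM at d80 and B3GNT3 35.9 and 159.1 CPM. The 2 d80 libraries were far apart, at 224 to 312 genes at 0 for replicate 2 and the later CF libraries and 2464 for replicate 1. Without replicate 2, the fitted change after d80 was log2 3.81 for GALNT7 and log2 2.28 for GCNT1. In that fit d80 is replicate 1 alone and is assumed to vary like the other groups. Far more of all genes passed in it than with both d80 libraries.

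In fetal liver no enzyme was called on the average of the stages, and GCNT1 was called at d65. Of the 10, B3GNT6 was too low to be tested, with 18 of 24 libraries at 0 and a highest estimated count of 10.9, and GALNT5 was tested at 0 to 0.451 CPM with 7 of 24 libraries at 0. On the average of the 5 fetal stages edgeR called none of the 9 tested, where 2.54% of all 16508 genes passed, and DESeq2 called none either. At an unadjusted p under 0.05 by edgeR were 2, both lower in CF, where 2590 of all 16508 genes were under it. B3GNT3 had a mean of 13.5 ± 3.78 CPM in CF and 17.5 ± 4.48 CPM in WT (n = 10 each, log2 -0.41 ± 0.17 SE), and GALNT3 had 3.30 ± 1.32 CPM and 4.19 ± 0.728 CPM (log2 -0.42 ± 0.18 SE). The others on the fetal mean were GALNT12 at log2 0.21 ± 0.14 SE with fetal levels of 3.08 to 5.64 CPM, GALNT4 at -0.21 ± 0.22 SE, GALNT7 at -0.41 ± 0.34 SE, GCNT1 at 0.23 ± 0.12 SE, GCNT3 at 0.33 ± 0.40 SE, GALNT5 at -1.49 ± 0.99 SE and ST6GAL1 at -0.59 ± 0.42 SE. The branching enzyme GCNT3 stayed at 0.113 to 1.00 CPM in WT and 0.178 to 0.934 CPM in CF fetal liver.

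At single fetal stages, 1 enzyme passed at d65 and none at the others. GCNT1, which makes the core 2 branch, was 53.4 and 67.2 CPM in CF at d65 and 32.7 and 21.7 CPM in WT, with no overlap. The fitted difference was 2.21-fold (log2 1.15 ± 0.27 SE, adjusted p = 0.0389), where 1.65% of all genes passed. Leaving out any 1 of the 4 d65 libraries ended the call, with adjusted p from 0.0744 to 0.225. At d50 the genotypes overlapped, with 38.0 and 54.6 CPM in CF and 45.3 and 40.3 CPM in WT.

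ST6GAL1 at d65 was 0.720 and 0.395 CPM in CF and 15.9 and 1.96 CPM in WT, without overlap (log2 -4.01 ± 1.07 SE, adjusted p = 0.0607). It passed with the DESeq2 Wald test (adjusted p = 0.00573) and with edgeR without a filter on low counts (0.0188). It did not pass with libraries of one donor stem summed. Without WT d65 replicate 2 the difference was log2 -4.84, where WT d65 is replicate 1 alone and is assumed to vary like the other groups. At d120 the order was turned, with 36.0 and 17.4 CPM in CF and 4.63 and 4.92 CPM in WT (log2 2.48 ± 0.94 SE, not called). GALNT7 at d120 was 4.02 and 2.32 CPM in CF and 1.01 and 0.595 CPM in WT, again without overlap or a call.

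By edgeR the counts were 0 at d50 (0.0% of all genes called), d80 (0.0727%), d100 (0.0424%) and d120 (0.0242%), with 0, 1, 1 and 3 enzymes at an unadjusted p under 0.05 and none called by DESeq2 at these stages. The numbers of all 16508 genes at an unadjusted p under 0.05 by edgeR were 372, 1511, 725 and 2358 at these stages. The highest ST6GAL1 levels of fetal liver were not those of 1 genotype or stage. The 5 fetal libraries with the fewest tested genes at 0 (314 to 563 of 16508) were WT d50 replicate 1, WT d65 replicate 1, CF d50 replicate 2 and both CF d120 libraries, and they held 15.9 to 36.0 CPM of ST6GAL1 and 2.32 to 4.02 CPM of GALNT7. The other 15, with 735 to 1931 genes at 0, held 0.395 to 4.92 CPM of ST6GAL1 and 0.156 to 1.71 CPM of GALNT7. For both genes the 2 ranges did not overlap. This line was drawn after the data were seen, it splits the WT d50, WT d65 and CF d50 pairs, and at d120 it and the genotype cannot be told apart. Its part in the d65 and d120 values was not tested.

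**Figure D4:**
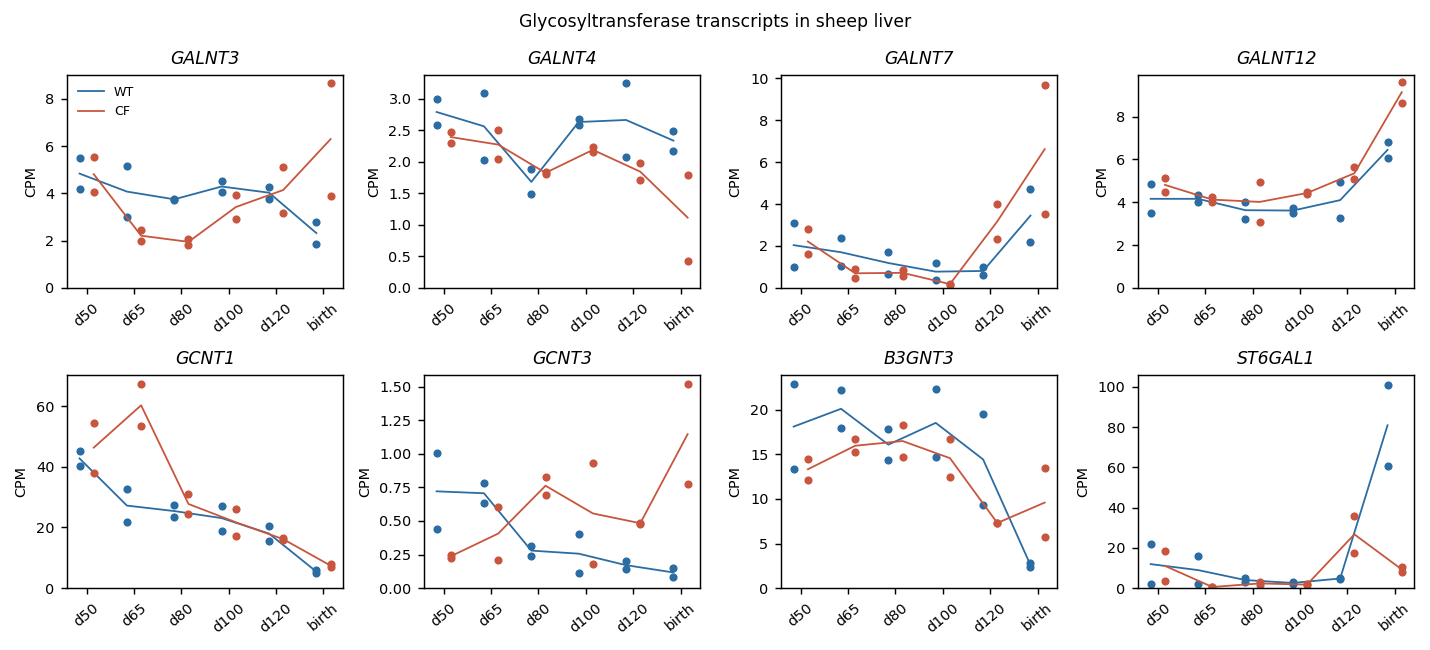
Points are liver libraries and lines join group means, in CPM by stage, blue for WT and red for CF, for 8 enzymes; WT term is drawn at birth. ST6GAL1 reaches 60.8 and 100.9 CPM in the WT newborns and 7.82 and 10.7 CPM in the CF newborns.

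GCNT1 fell over liver development in both genotypes. In WT it went from 45.3 and 40.3 CPM at d50 to 20.4 and 15.6 CPM at d120 and to 5.86 and 4.996 CPM at term. In CF it went from 38.0 and 54.6 CPM at d50 to 15.7 and 16.5 CPM at d120 and to 7.996 and 6.85 CPM at birth. The fitted line from d50 to d120 fell 3.498-fold in CF (log2 -1.81 ± 0.25 SE, adjusted p = 0.000136, 16.5% of all genes called) and 2.11-fold in WT (log2 -1.08 ± 0.24 SE, adjusted p = 0.0130, 4.80% of all genes called). The WT call ended without WT d120 replicate 2 or WT d50 replicate 1 (adjusted p 0.0645 to 0.169), and that of CF did not end with any library left out. The 2 slopes were not called as different for any enzyme by edgeR (0.00606% of all genes called) or by DESeq2. By edgeR 3 enzymes had an unadjusted p under 0.05, as did 2174 of all 16508 genes.

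Over the 24 liver libraries the gene whose level followed GCNT1 most closely was HBZ, the embryonic zeta globin (Pearson r = 0.94 of log2 CPM, n = 24), as a description. Erythroid markers summed to 2045 to 6757 CPM in fetal liver and to 0.7 to 22.8 CPM in newborn liver. Their part in the fall of GCNT1 was not tested.

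From d120 to the newborn stage GCNT1 fell further in both genotypes, by log2 -1.73 ± 0.28 SE in WT (adjusted p = 0.000111) and -1.12 ± 0.27 SE in CF (adjusted p = 0.00885, lost without CF birth replicate 2 or CF d120 replicate 2, 0.0533 to 0.0664). In WT, 4 of 9 enzymes changed against 35.4% of all genes. B3GNT3 fell 5.57-fold, from 19.5 and 9.38 CPM to 2.85 and 2.32 CPM (log2 -2.48 ± 0.40 SE, adjusted p = 0.000129). ST6GAL1 rose 16.9-fold, from 4.63 and 4.92 CPM to 100.9 and 60.8 CPM (log2 4.08 ± 1.00 SE, adjusted p = 0.00405). GALNT7 rose 4.31-fold, from 1.01 and 0.595 CPM to 4.72 and 2.18 CPM (adjusted p = 0.0400, and 0.0890 to 0.265 when WT term replicate 1 or a WT d120 library was left out). In CF, GCNT1 was the 1 enzyme of 9 that was called, against 14.7% of all genes. The change in CF minus that in WT, a comparison added after the data were seen, was called for 2 of 9 enzymes, B3GNT3 and ST6GAL1, against 21.1% of all genes.

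In newborn liver B3GNT3, GALNT3 and GCNT3 were called higher in CF and ST6GAL1 lower. Of the 9 enzymes tested 4 were called, where 33.7% of all genes were, so the share is near the background. B3GNT3 was higher in CF, at 5.76 and 13.4 CPM against 2.85 and 2.32 CPM in WT (3.71-fold, log2 1.89 ± 0.40 SE, adjusted p = 0.00141). ST6GAL1 was lower in CF, at 10.7 and 7.82 CPM against 100.9 and 60.8 CPM (8.72-fold lower, log2 -3.12 ± 0.95 SE, adjusted p = 0.0171). For both genes the 2 genotypes did not overlap.

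GALNT3 was higher in CF at 3.90 and 8.68 CPM against 2.78 and 1.85 CPM (2.71-fold, log2 1.44 ± 0.41 SE, adjusted p = 0.0117). GCNT3 was higher at 1.52 and 0.776 CPM against 0.152 and 0.0806 CPM (9.65-fold, log2 3.27 ± 0.97 SE, adjusted p = 0.0142). The GALNT3 call ended without WT term replicate 2 or CF birth replicate 2 (0.109 to 0.259), that of GCNT3 without either WT library or CF birth replicate 1 (0.0586 to 0.111), and that of ST6GAL1 without WT term replicate 1 or either CF library (0.0567 to 0.107). B3GNT3 kept its call in each case.

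GALNT4 was 2.49 and 2.18 CPM in WT newborns and 1.80 and 0.429 CPM in CF, the lower CF value being that of replicate 2 (log2 -1.06 ± 0.50 SE, adjusted p = 0.111, and 0.00155 without CF birth replicate 1, when replicate 2 stands alone and is assumed to vary like the other groups). GALNT12 was 6.07 and 6.83 CPM in WT and 9.64 and 8.65 CPM in CF (log2 0.50 ± 0.30 SE), GALNT7 4.72 and 2.18 CPM in WT and 3.53 and 9.71 CPM in CF (log2 0.94 ± 0.72 SE), and GCNT1 5.86 and 4.996 CPM in WT and 7.996 and 6.85 CPM in CF (log2 0.45 ± 0.27 SE). These 3 were not called. Of the 9 tested enzymes 5 had both CF libraries above both WT libraries and 2 had both below, where 30.8% and 31.4% of all genes did.

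The newborn groups differed in other ways. Hepatocyte markers summed to 215356 and 222986 CPM in WT and to 150355 and 37686 CPM in CF, duct epithelium markers to 777 and 796 CPM in WT and to 1718 and 888 CPM in CF, and macrophage markers to 1679 and 1839 CPM in WT and to 839 and 879 CPM in CF. Of the single markers, 8 of 14 hepatocyte and 5 of 8 macrophage markers were lower in CF, while 7 of 12 duct (median log2 2.95), 7 of 8 endothelial (1.46), 7 of 7 erythroid (3.60), 4 of 7 B and plasma cell (2.73), 3 of 7 smooth muscle (1.33) and 2 of 7 T and NK cell markers (1.66) were higher. The B and plasma cell sum was 11.2 CPM in CF birth replicate 1 and 124.9 CPM in replicate 2, beside 11.4 and 13.3 CPM in WT. The WT term libraries carry names from a range of their own, so that range and the newborn WT group cannot be told apart. The number of tested genes at 0 was 808 and 940 in WT and 1115 and 1131 in CF. The part of each in the newborn differences was not tested.

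**Figure D5:**
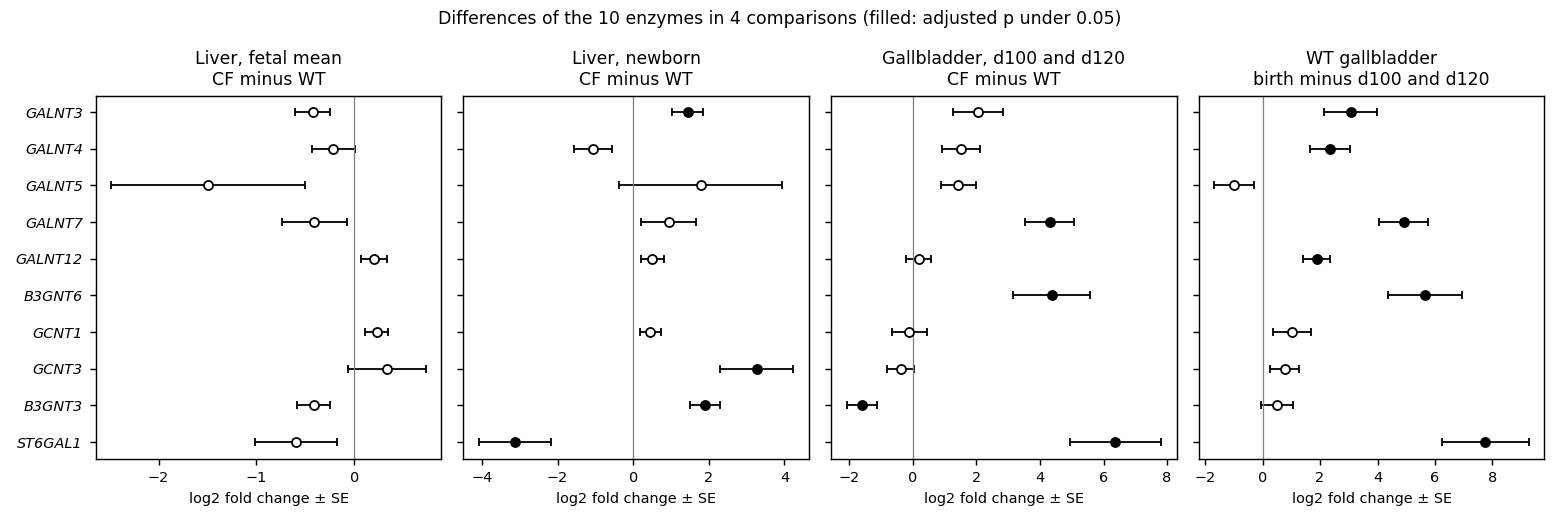
Points are log2 fold changes with SE bars for each enzyme in fetal liver, newborn liver and gallbladder of d100 and d120 (CF minus WT) and in WT gallbladder (birth minus fetal); filled points have an adjusted p under 0.05. GALNT7 is at 4.30 ± 0.78 in the gallbladder genotype comparison and at -0.41 ± 0.34 in fetal liver.

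The levels of some genes followed those of single enzymes closely, given as a description over libraries that share tissue, stage and depth. In gallbladder (n = 12) SNX13 and JAK1 were among the genes nearest GALNT7, each with a Pearson r of log2 CPM of 0.994. JAK1, a cytokine receptor kinase, lay at 64.5 to 89.2 CPM in the 4 WT fetal libraries and CF d80 replicate 1 and at 192 to 272 CPM elsewhere, which is the division seen for GALNT7. The gene nearest GALNT3 was ESRP1, an epithelial splicing regulator (r = 0.99), and the gene nearest GALNT12 was CD24 (0.97). In liver (n = 24) the gene nearest ST6GAL1 was CYB5A, cytochrome b5 (r = 0.97), at 164 and 193 CPM in the WT newborns, 33.3 and 40.8 CPM in the CF newborns and 2.99 to 80.5 CPM in fetal liver. Among the enzymes, ST6GAL1 went with GALNT7 in liver (r = 0.72) and against B3GNT3 (r = -0.75).

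Other genes of the same pathway were read from a list of 58, of which 49 were tested in liver and 50 in gallbladder. In gallbladder at d100 and d120, 12 of 50 were higher and 6 lower in CF, a smaller share than the 43.7% of all genes called. Among the other GALNT genes 5 of 10 were higher and none lower, where 23.6% of all genes were called higher. They included GALNT16 (log2 2.60 ± 0.29 SE, adjusted p = 0.00199), GALNT2 (4.56 ± 1.25 SE) and GALNT10 (3.81 ± 1.096 SE). None of the 4 other core genes was called. B4GALT1, which adds galactose to growing chains, was higher (5.27 ± 1.44 SE), as was the sialyltransferase ST3GAL1 (5.24 ± 1.15 SE), while ST3GAL4 was lower (-1.33 ± 0.26 SE). These genes included several that divided along the line of genes at 0. GALNT2 was 0 to 4.56 CPM in the 5 libraries with the most and 22.2 to 51.4 CPM in the other 7. GALNT10 was 0 to 2.02 and 5.97 to 17.1 CPM, B4GALT1 0 to 2.50 and 26.2 to 127.3 CPM. ST3GAL1 was 0.732 to 2.54 and 36.5 to 91.7 CPM. GALNT16 did not divide, at 4.06 to 24.5 and 2.63 to 43.6 CPM, nor did ST3GAL4, at 79.9 to 496.1 and 51.0 to 323.3 CPM. Genes of sugar supply split, with the UDP-galactose carrier SLC35A2 higher (1.71 ± 0.34 SE) and the sialic acid enzymes NANS (-1.62 ± 0.33 SE) and CMAS (-0.68 ± 0.19 SE) lower. SLC35A2 also divided along the line of genes at 0, at 1.58 to 4.62 and 7.51 to 12.0001 CPM. NANS divided along it in the other direction, at 101.8 to 213.8 and 36.8 to 74.1 CPM. CMAS did not divide, at 101.5 to 223.995 and 78.6 to 206.7 CPM. The part of that line in these differences was not tested.

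From WT fetal to WT birth gallbladder 14 of these 50 rose and 7 fell, where 27.1% of all genes were called and 16.0% called higher. They included the core 1 synthase C1GALT1, which rose by log2 1.56 ± 0.36 SE, and GALNT1, which rose by 1.03 ± 0.21 SE. Among those that fell were GALNT18 (-2.26 ± 0.64 SE), GALNT16 (-1.26 ± 0.36 SE), B3GNT8 (-3.44 ± 0.78 SE) and ST3GAL3 (-1.71 ± 0.54 SE). In newborn liver 10 of 49 were higher and 9 lower in CF, where 33.7% of all genes were called. The sialyltransferases ST6GALNAC2 (log2 1.98 ± 0.32 SE), ST6GALNAC4 (1.99 ± 0.34 SE) and ST3GAL4 (1.65 ± 0.29 SE) were higher there, and ST6GAL1 was lower. CMAS, which activates sialic acid, was lower (-1.56 ± 0.21 SE), and so were C1GALT1 (-1.13 ± 0.27 SE) and its chaperone C1GALT1C1 (-0.99 ± 0.24 SE). In fetal liver the 1 gene called of 49 on the fetal mean was GCNT2, a branching enzyme of the I antigen (-0.45 ± 0.10 SE, adjusted p = 0.0248).

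Mucins, which carry these chains, and other secretory genes were read from a list of 19. In WT gallbladder 4 of 16 tested rose from fetal stages to birth and 1 fell, near the 27.1% of all genes called. The cell-surface mucins MUC1 (407.7 against 49.0 CPM, log2 3.09 ± 0.31 SE) and MUC13 (1329 against 43.4 CPM, 4.94 ± 0.85 SE) were among those that rose. Between genotypes at d100 and d120, 3 of 16 were higher in CF, with the secretory factor CREB3L1 (4.17 ± 0.81 SE) and the mucin MUC4 (3.05 ± 0.90 SE) among them, and 2 were lower, FOXA3 (-2.35 ± 0.34 SE) and the trefoil peptide TFF2 (-3.68 ± 0.59 SE); 43.7% of all genes were called there. In newborn liver 4 of 15 were called, beside 33.7% of all genes. MUC20 (2.99 ± 0.64 SE) and AGR2 (2.01 ± 0.43 SE) were higher in CF, and MUC13 (-1.75 ± 0.46 SE) and TFF2 (-3.17 ± 0.96 SE) lower.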

How the data were processed

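Bulk RNA of sheep liver and gallbladder, extracted with TRIzol from frozen tissue per the labels, was measured in 36 libraries. The deposited values are estimated counts per gene, made by the authors; the submitters' processing notes list Salmon (1.9.0 and 1.10.1), STAR 2.7.9a, DESeq2, limma and edgeR without roles, and the genome build of the RNA counts is not given in the sources used here. Of gallbladder values above 0, 87.8% were whole within 0.001. The liver table, whose name mentions TPM, has count-like totals and 0.3% of values above 0 whole, so rescaling by transcript length is possible. Reads of GALNT4, which lies within the span of POC1B in the sheep reference, may be shared with it, so its values are uncertain.

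Estimated counts were rounded and each tissue was fitted alone in edgeR 4.0.16 (R 4.3.3) with TMM factors, filterByExpr and one mean per genotype and stage. Tests were two-sided quasi-likelihood tests with Benjamini-Hochberg adjustment over 16508 genes in liver and 18717 in gallbladder, at 0.05. SE was computed from the fold change and F. Folds against a group at 0 used a floor of 3 counts over the group, a limit for counting error only. Script behaviour was tested on simulated data with 200 genes changed. Tissues were not compared with each other.

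Members and gene lists were chosen with earlier results of these data known. Named were all 10 enzymes, from each pathway list up to 4 called genes with the smallest p, and per enzyme the 3 genes of highest Pearson r among genes of at least 1 CPM, some of which are not reported here. The difference between genotypes in the change from d120 to the newborn stage, the summing of the CF d100 gallbladder pair and the split by genes at 0 were added after the data were seen. The other alternatives were DESeq2 1.42.0 size factors, its Wald test, no filter, each library left out, libraries of one donor stem summed, and, in gallbladder, scaling on genes under 1 CPM in liver.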

Additional observations from a re-analysis of the deposited data

Results flagged for a closer look

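B3GNT3 and ST6GAL1 changed differently from d120 to the newborn stage in the 2 genotypes of liver, by a test of the difference itself that was added after the data were seen. For B3GNT3 the change in CF minus that in WT was log2 2.87 ± 0.55 SE (edgeR adjusted p = 0.00147): it fell in WT by log2 -2.48 ± 0.40 SE and was at 0.39 ± 0.38 SE in CF, where the newborn libraries stood at 5.76 and 13.4 CPM. For ST6GAL1 it was log2 -5.61 ± 1.34 SE (adjusted p = 0.00671), with 4.08 ± 1.00 SE in WT and -1.53 ± 0.90 SE in CF. Of all genes 21.1% passed in this comparison, and both calls were kept with each library left out in turn. The d120 levels of ST6GAL1 also enter this value, and both CF d120 libraries belong to the 5 fetal livers with the fewest genes at 0, whose part was not tested.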

How the results depend on the processing

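B3GNT6, GALNT5 in liver and ST6GAL1 in WT d120 gallbladder had libraries at 0, where sizes of differences are uncertain. No paired analysis was possible because the labels carry no replicate numbers shared between groups. With DESeq2 size factors every count of called enzymes stayed within 1.5 times that reported. The DESeq2 Wald test called 6 in gallbladder over both stages and 5 at d120 (in both adding GALNT3, in the first also GALNT5), 2 at liver d65, 2 in CF liver from d120 to birth, 2 in d100 gallbladder, 1 in the difference of d100 and d120 and 1 in CF gallbladder after d80. Over all 18717 gallbladder genes that test called 5870 higher and 4373 lower over both stages, and 4752 and 3104 at d120. It called 2806 and 2430 at d100, 769 and 256 in the difference of the stages, and 311 and 525 in CF after d80. Over all 16508 liver genes it called 349 and 885 at d65, and 1595 and 1729 in CF from d120 to birth. With no filter liver d65 gave 2, where 75 of 19395 genes were called higher and 471 lower. With libraries of one stem summed, liver d65 gave 0, the WT liver slope 0, gallbladder over both stages 1, d120 gallbladder 1 and WT gallbladder toward birth 0; with the CF d100 pair summed, gallbladder over both stages gave 2 and d120 1. These fits have fewer units, and fewer of all genes passed in each of these comparisons as well. Over both gallbladder stages B3GNT3 and B3GNT6 lost their calls in each, and ST6GAL1 with stems summed. Scaling on genes low in liver gave 2 at d120. Of all 18717 genes it called 1116 higher and 637 lower there, beside 2471 and 1769 in the fit reported above. The scaling moved the median of all genes by log2 -0.34 over both stages, -0.71 at d100 and 0.74 in the stage difference. Where no value shows it, the cause was not tested.

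With 1 library left out in turn, the number called ran from 1 to 4 for gallbladder over both stages, 0 to 2 at d120, 0 to 5 toward WT birth, 0 to 2 in CF after d80, 2 to 3 in newborn liver, 3 to 4 from WT d120 to term, 0 to 2 from CF d120 to birth, 2 to 4 for the difference of those changes, 1 to 2 and 0 to 1 for the CF and WT slopes and 0 to 1 at liver d65. It was 0 to 0 in all other comparisons. The number of all genes called also changed with the library left out. Directions turned in newborn liver without CF birth replicate 2 for GALNT5 (log2 -3.69, up to 2.78 in the other leave-outs) and GALNT7 (-0.015, up to 1.60). In gallbladder over both stages they turned for GALNT12 (-0.21 scaled on genes low in liver, -0.0085 without WT d120 replicate 1, -0.071 without CF d120 replicate 1, leave-outs up to 0.44), GCNT1 (0.0079 without WT d120 replicate 2, 0.21 without CF d120 replicate 2, leave-outs down to -0.59) and GCNT3 (0.115 without WT d120 replicate 2, leave-outs down to -0.68), none of which was called.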
